A study of Mus musculus with 8 samples.

Results

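Committed oligodendrocyte precursors (COP) were taken as the 2825 cells that the authors' annotation names COP, of 60989 cells in the mouse cortex table. The oligodendrocyte lineage makes the myelin sheaths of the central nervous system. Oligodendrocyte precursor cells (OPC) divide and migrate through the cortex, and some of them leave the cycle and become COP, a short-lived stage that no longer behaves as a progenitor but has not yet formed myelin. COP give rise to newly formed oligodendrocytes (NFOL), which begin to contact axons, then to myelin-forming (MFOL) and mature oligodendrocytes (MOL). The transcription factors Olig1 and Olig2, which specify and maintain this lineage, were the markers given for COP. The cell table holds no expression values, so neither marker was analysed here and the name COP stands as the authors gave it.

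Wild-type C57BL/6 mice gave the tissue, motor and somatosensory cortex, at postnatal day 1 (P1, 3 libraries), day 7 (P7, 2 libraries) and day 21 (P21, 3 libraries), with no treatment in any group. Tissue of several animals of both sexes was pooled for each droplet library, live cells were sorted, and the library is the replicate. Libraries are named by the number that follows each cell's barcode, 1 and 2 at P7 and 6, 7 and 8 at P21. Each cell has its unique molecular identifiers (UMIs, counts of distinct captured transcripts), its number of detected genes and its mitochondrial share of UMIs. Libraries held 2240 to 11310 cells and 7751963 to 58553300 UMIs. The P7 libraries share a collection day and no day is shared between ages, and more papain, the digesting enzyme, was used at P21, so day, digestion and age cannot be told apart. Of the COP cells, 221 (7.82%) carried a barcode that also names a cell of another library, as did 4289 of all 60989 cells. Between COP cells of different libraries, 6 barcodes were shared.

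No cell was named COP at P1, where 1622 cells of the lineage were all named OPC. By counting error alone, a count of 0 allows a share of cells named COP of up to 0.0105% of the 28537 P1 cells, or 0.185% of the lineage cells. The authors clustered each age apart and named whole clusters. COP cells inside an OPC cluster would therefore not be counted, and the limit does not bound them. At P7 there were 107 COP cells, 56 in library 1 and 51 in library 2. At P21 there were 2718, with 1207 in library 6, 637 in library 7 and 874 in library 8. The annotation splits them into 3 of the table's 65 clusters, P7_171_COP with all 107 cells at P7, P21_0_COP with 2274 cells and P21_41_COP with 444 cells.

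COP were rare at P7 and a major population of the sorted P21 cortex. They made up 0.495% of the cells of library 1 (95% exact binomial interval 0.374 to 0.643%) and 0.456% of library 2 (0.340 to 0.600%). At P21 they made up 42.2% of library 6 (40.4 to 44.0%), 28.4% of library 7 (26.6 to 30.4%) and 18.0% of library 8 (16.9 to 19.1%). All P21 libraries lay above both P7 libraries, and the 3 P21 libraries also lay apart from each other beyond their counting intervals, which cover counting error only. The P7 mean was 0.476% ± 0.0275 (SD, n = 2) and the P21 mean 29.5% ± 12.1 (SD, n = 3), a difference of 29.1 percentage points. In a two-sided exact permutation test p = 0.1, the smallest that 5 libraries allow, and the adjusted p was 0.25. COP also supplied 40.8, 30.4 and 21.3% of all UMIs in libraries 6, 7 and 8, against 0.441 and 0.420% in libraries 1 and 2. A share of sorted cells depends on every other type in the suspension, so COP were also counted against the stages beside them.

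Counted per OPC, COP did not separate the ages. Library 1 held 1.06 and library 2 0.944 COP cells for each OPC cell, and libraries 6, 7 and 8 held 3.81, 2.44 and 0.966. Libraries 6 and 7 stood above both P7 libraries and library 8 between them. The log2 ratio was 1.06 higher at P21 on average, within the spread of the libraries (exact permutation p = 0.3, adjusted p = 0.5). It was 0.62 without library 6, 1.61 without library 8 and 2.23 among cells with at least 1500 genes. In libraries 6, 7 and 8 that cut kept 25.9, 20.3 and 31.5% of OPC, against 77.9, 76.5 and 84.6% of COP. In libraries 1 and 2 it kept 49.1 and 61.1% of OPC, against 75 and 76.5% of COP. The cut thus removed OPC more than COP, most of all at P21, so 2.23 does not show a larger difference among all cells. Within the lineage COP were 51.4 and 48.6% of cells at P7 and 61.3, 55.8 and 41.8% at P21, so the ranges of the ages overlapped. NFOL, the next stage, were named only at P21, where 3.75, 4.83 and 5.99 COP cells were counted per NFOL cell in libraries 6, 7 and 8. Library 8 thus held the fewest COP per OPC and the most COP per NFOL of the P21 libraries.

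**Figure D1:**
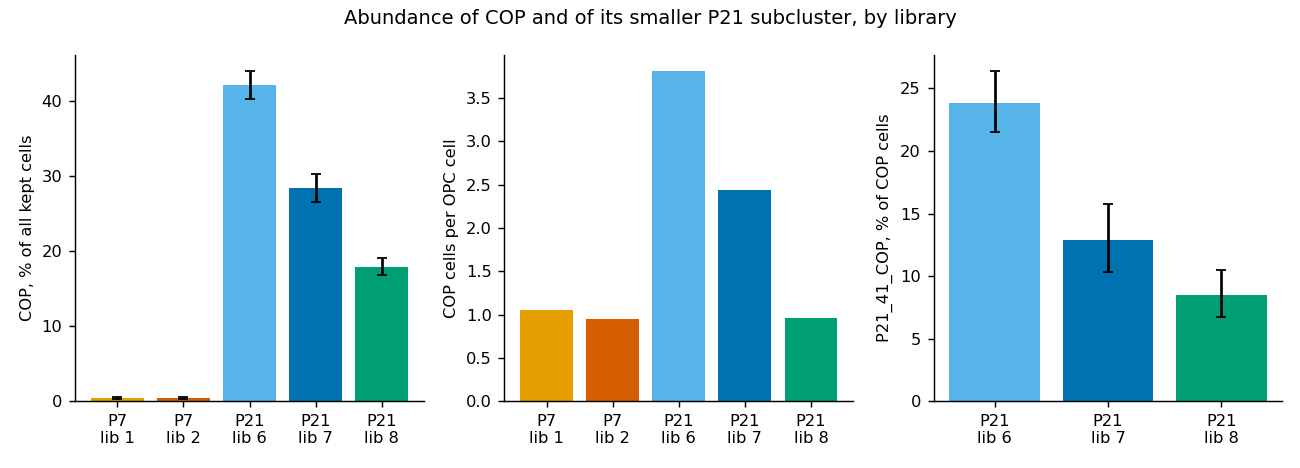
COP as a percentage of all cells (left), COP cells per OPC cell (middle) and the subcluster P21_41_COP as a percentage of COP cells (right), one bar per library, with 95% exact binomial intervals on the percentages. COP stand under 0.5% in both P7 libraries and at 18.0 to 42.2% in the P21 libraries, whereas COP per OPC in library 8 (0.966) lies between the P7 values.

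Subcluster P21_41_COP took a different share of COP in each P21 library. It held 288 of 1207 COP cells in library 6, or 23.9% (95% exact binomial interval 21.5 to 26.4%). In library 7 it held 82 of 637, or 12.9% (10.4 to 15.7%), and in library 8 74 of 874, or 8.47% (6.71 to 10.5%). The share in library 6 lay above the other two intervals, and those of libraries 7 and 8 met only at their edges. Among COP cells with at least 1500 genes the shares were 20.9, 14.2 and 9.88%, in the same order. P21_41_COP carries the number next to that of the NFOL cluster, P21_40_NFOL, and per NFOL cell it counted 0.894, 0.621 and 0.507. P21_0_COP counted 2.90, 2.13 and 0.884 per OPC cell. The sources used here do not say what the cluster numbers mean, and an order of the subclusters between OPC and NFOL was not tested. At P7 the COP cluster, P7_171_COP, stands next in number to the OPC cluster, P7_170_OPC.

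COP cells held intermediate amounts of captured RNA, between OPC and NFOL. At P7 the median COP cell had 3713 UMIs in library 1 and 4266 in library 2. At P21 the medians were 3542, 3667 and 4183.5 UMIs in libraries 6, 7 and 8. The P7 and P21 values interleaved, with means of 3989.5 ± 391 UMIs (SD, n = 2) and 3797.5 ± 340 UMIs (SD, n = 3). The difference of -192 UMIs did not exceed the spread between libraries (exact permutation p = 0.5, adjusted p = 0.625). With P21_41_COP alone standing for P21 it was 103 UMIs. Detected genes of COP were as close between ages, with medians of 1818 and 1857 at P7 and 1820, 1851 and 2095 at P21 (difference 84.5 genes, exact permutation p = 0.8). UMIs and genes per cell also follow library depth, which was not corrected for here beyond the authors' downsampling.

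The mitochondrial share was the measure in which COP of the ages lay apart. The COP medians were 4.16 and 4.65% of UMIs at P7 and 3.63, 3.52 and 3.53% at P21. Every P21 library was below both P7 libraries, and the P21 medians were close together, at 3.56% ± 0.0595 (SD, n = 3) against 4.41% ± 0.344 (SD, n = 2). The difference was -0.848 percentage points, with the smallest p the exact permutation test allows (p = 0.1, adjusted p = 0.25). In limma, which pools the spread over the 7 types with at least 20 cells in 2 or more libraries of each age, the share in COP was lower at P21 with a standard error of 0.272 points (adjusted p = 0.0132). That model called 57.1% of the 7 types for mitochondrial share, 57.1% for UMIs and 42.9% for genes, and COP was called for mitochondrial share only. The called types did not share a direction, since astrocytes were 2.64 points higher at P21 and CPN, the callosal projection neurons, fell by 1.62 points. OPC also lay apart by age, at 4.48 and 4.68% at P7 and 4.40, 4.23 and 4.24% at P21. Their difference was -0.287 points (exact permutation p = 0.1, the smallest possible), which limma did not call (adjusted p = 0.355). A lower share at P21 was thus not particular to COP. Because limma found infinite prior degrees of freedom for this measure, 1 spread was used for all types. The types come from the same libraries, yet the model treats them as independent, so its p may be too small.

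In transcripts per cell, COP carried a median of 162 and 192 mitochondrial UMIs at P7 and of 125, 130 and 139 at P21. The P21 libraries again lay below both P7 libraries, at 131 ± 7.09 UMIs (SD, n = 3) against 177 ± 21.2 (SD, n = 2). Among COP cells with 3000 to 4000 UMIs the share was 4.61 and 4.62% at P7, from 14 and 10 cells, and 3.58, 3.48 and 3.53% at P21, from 156 to 395 cells. The difference in this window was -1.09 points, in the same order of the ages (exact permutation p = 0.1, the smallest possible). Depth was not equal in it, with COP medians of 3269 and 3438.5 UMIs at P7 and 3517, 3526 and 3525 at P21. With library 1 alone at P7, the difference was -1.57 points from 2500 to 3500 UMIs and -0.594 points from 2000 to 3000 UMIs.

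Within every library COP held more UMIs and genes than OPC. The median OPC cell had 2786 and 2727 UMIs at P7 and 1951, 1817 and 1946 at P21. COP exceeded OPC by 927 and 1539 UMIs at P7 and by 1591, 1850 and 2237.5 UMIs at P21, a mean of 1629 UMIs over the 5 libraries. As a ratio of medians COP stood at 1.33 and 1.56 times OPC at P7 and at 1.82, 2.02 and 2.15 times at P21. Genes differed by 345 and 243 at P7 and by 522, 637 and 778 at P21, a mean of 505 genes. In mitochondrial share COP stood below OPC in 5 of 5 libraries, with a mean difference of -0.505 points and one of only -0.0248 points in library 2. For each of the 3 measures all 5 libraries pointed one way, and the two-sided exact sign-flip permutation test gave p = 0.0625, its smallest value with 5 libraries, which does not pass 0.05.

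**Figure D2:**
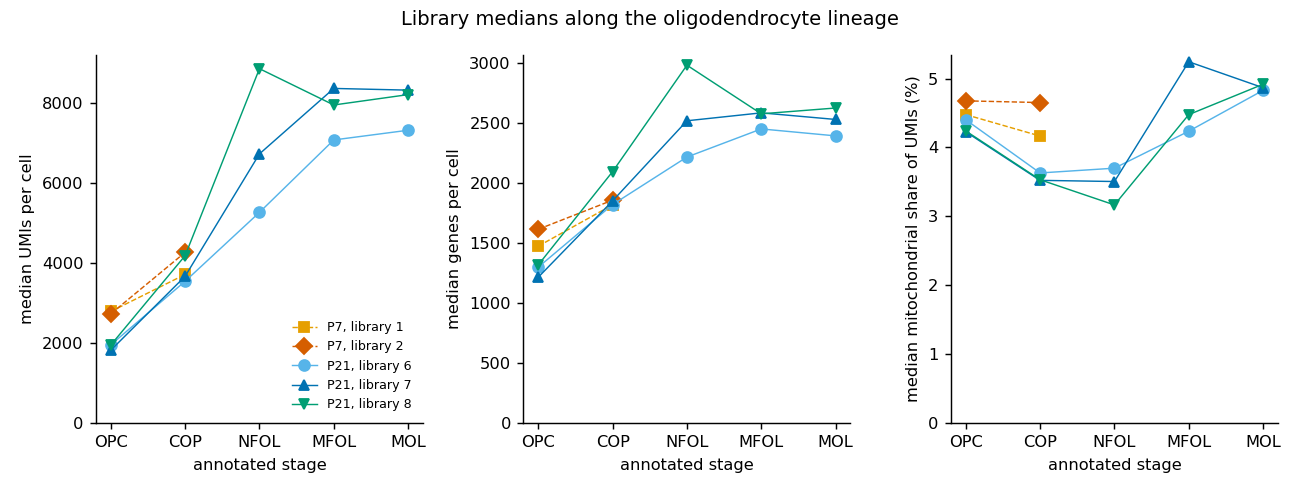
Median UMIs per cell (left), genes per cell (middle) and mitochondrial share of UMIs (right) along the annotated stages, one point per library, with dashed lines for P7 and solid lines for P21. COP lie above OPC and below NFOL in UMIs and genes in every library that has these stages, and COP at P21 lie between 3.52 and 3.63% in mitochondrial share.

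The distance between COP and OPC lay apart by age in UMIs, genes and mitochondrial share, without passing the test. The gap in genes at P7 was 294 ± 72.1 (SD, n = 2) and at P21 645.7 ± 128 (SD, n = 3), and that in mitochondrial share was -0.168 ± 0.202 and -0.729 ± 0.0381 points. In both the ages did not overlap, and the exact permutation test of the difference of gaps gave its smallest p of 0.1 (adjusted p = 0.15). The gaps in UMIs did not overlap either, at 927 and 1539 at P7 against 1591, 1850 and 2237.5 at P21. Their mean was 660 larger at P21 (exact permutation p = 0.2, and p = 0.1 on log2 medians). It was 354 larger without library 1 and 966 larger without library 2. Most of these gaps lay in the OPC medians for UMIs and genes and in the COP medians for mitochondrial share. From P7 to P21 the mean of the library medians differed by -852 UMIs, -267 genes and -0.287 points in OPC, against -192 UMIs, 84.5 genes and -0.848 points in COP. At P7 OPC stood at 2756.5 ± 41.7 UMIs (SD, n = 2), against 1905 ± 76.0 (SD, n = 3) at P21. In limma OPC were 0.53 lower at P21 on the log2 scale (adjusted p = 0.00432). The same model gave COP a difference of -0.07 ± 0.11 (SE, adjusted p = 0.551). Its other differences in UMIs were -0.248 in astrocytes, -0.233 in CPN and -0.389 in pericytes. They were 0.953 in Vip interneurons and 0.637 in subcerebral projection neurons. Whether library depth gave part of the fall in OPC was not tested.

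Many P21 OPC sat close to the minimum of 1000 genes that the authors set for a cell. Under 1200 genes lay 34.4, 47.1 and 33.0% of OPC in libraries 6, 7 and 8, against 11.3 and 20.4% in libraries 1 and 2. Of COP cells only 5.72, 9.58 and 4.92% lay there at P21, and 5.36 and 17.6% at P7. When only cells with at least 1500 genes were compared, the difference of the gaps was 129 UMIs (exact permutation p = 0.8) and 160 genes (p = 0.4). With cells under 5% mitochondrial share, the difference of the gaps in that share was -0.00753 points (exact permutation p = 1). That limit cuts the measure compared, so the value does not show that the gaps are alike. It kept 66.1 and 60.8% of COP at P7 and 79.4, 81.8 and 84.6% at P21. Of OPC it kept 66.0 and 59.3% at P7 and 66.6, 66.7 and 68.3% at P21.

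**Figure D3:**
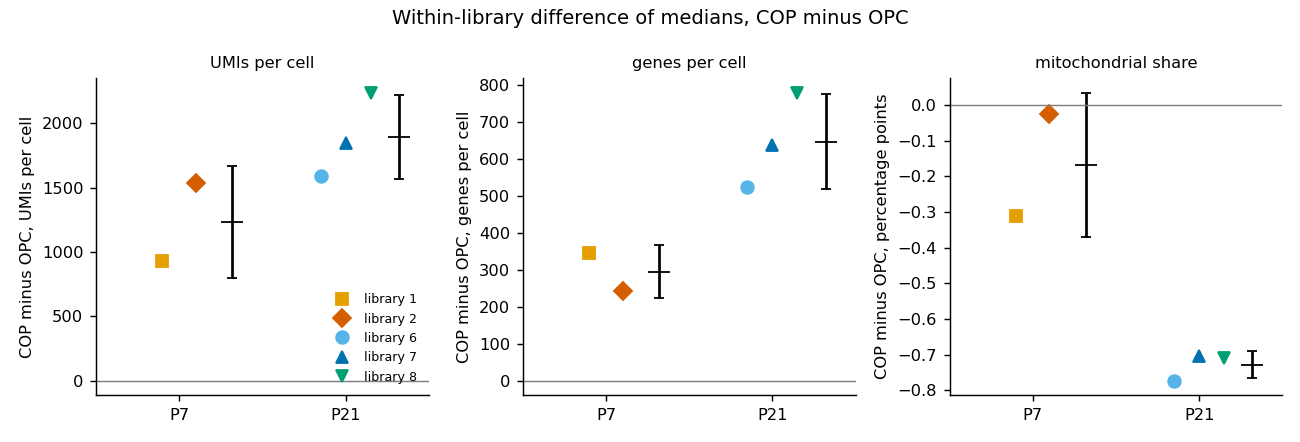
Within-library difference of medians, COP minus OPC, in UMIs (left), genes (middle) and percentage points of mitochondrial share (right), one point per library, with the mean and SD of each age in black beside them. Gaps do not overlap between ages in any panel. They are 927 to 1539 against 1591 to 2237.5 UMIs and 243 to 345 against 522 to 778 genes.

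Against NFOL, COP of the same library held fewer UMIs and fewer genes. NFOL medians were 5267.5, 6731 and 8864 UMIs in libraries 6, 7 and 8, or 1.49, 1.84 and 2.12 times those of COP. The differences, COP minus NFOL, were -1725.5, -3064 and -4680.5 UMIs and -396.5, -668 and -887.5 genes. Each pair pointed the same way, and with 3 libraries the exact sign-flip permutation test cannot go below its p of 0.25 (adjusted p = 0.375). The distance was greatest in library 8 and smallest in library 6 for both measures. In mitochondrial share COP and NFOL did not separate, with differences of -0.0694, 0.0170 and 0.366 points (mean 0.105, exact permutation p = 0.75).

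Taken as one series, OPC, COP and NFOL differed in UMIs and genes at P21. The order OPC, COP, NFOL held in 3 of 3 libraries, with NFOL above OPC by 5049.5 UMIs and 1296 genes on average. The exact permutation test within libraries gave p = 0.0278 for both, the smallest of its 216 assignments (adjusted p = 0.0417). That adjustment covers the 3 measures of this test alone. The plan put the subcluster tests in the same family, and an adjustment over both was not run. Passing was thus shown for the narrower family only. Leaving out any 1 of libraries 6, 7 and 8 left an exact permutation p of 0.167, the smallest that 2 libraries allow. The mitochondrial share did not pass (exact permutation p = 0.0833), with OPC highest in each library, at 4.40, 4.23 and 4.24%, and COP and NFOL below them. The authors named the stages from expression in these same cells, so the tests describe the annotated groups.

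The overlap of single cells shows how COP sat between their neighbours. At P21 93.4, 92.6 and 92.3% of COP cells exceeded the OPC median of their library in UMIs, and 5.63, 0.942 and 1.14% exceeded the NFOL median. At P7 78.6 and 76.5% of COP cells exceeded the OPC median. COP thus overlapped OPC more at P7 than at P21 in these libraries. For mitochondrial share 31.7, 30.6 and 28.9% of P21 COP cells lay above the OPC median, and 44.6 and 49.0% did at P7.

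UMIs were spread more widely among the few COP cells of P7 than among those of P21. The ratio of the 90th to the 10th percentile of UMIs was 3.77 and 4.85 at P7 and 2.35, 2.83 and 3.17 at P21. All P21 libraries lay below both P7 libraries, a log2 difference of -0.63 with the smallest exact permutation p of 0.1. OPC stood likewise, at 2.74 and 3.85 against 2.12, 1.91 and 2.12, so the narrower spread was not particular to COP. COP cells ranged from 1354 to 12197 UMIs at P21, and from 1629 to 11972 at P7.

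The P21 subclusters did not separate by captured RNA. P21_0_COP had medians of 3698, 3653 and 4048.5 UMIs in libraries 6, 7 and 8, and P21_41_COP 3149.5, 3847 and 5280.5. P21_41_COP minus P21_0_COP was thus -548.5 UMIs in library 6 and 194 and 1232 UMIs in libraries 7 and 8 (mean 292.5, exact permutation p = 0.75). Genes followed UMIs, with 1875, 1851 and 2078 in P21_0_COP and 1663.5, 1875.5 and 2317.5 in P21_41_COP (mean difference 17.5, exact permutation p = 0.75). Library 8 alone decided these signs, and without it the mean differences were -177 UMIs and -93.5 genes. P21_41_COP medians spanned a wider range of UMIs over libraries than P21_0_COP, and they lay in the same library order as NFOL. That order was not particular to them. Pericytes, at 2443, 2695.5 and 3156 UMIs, and CPN, at 3792, 4264 and 5722.5, lay in it too. OPC, astrocytes, microglia, MFOL, MOL and P21_0_COP did not.

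**Figure D4:**
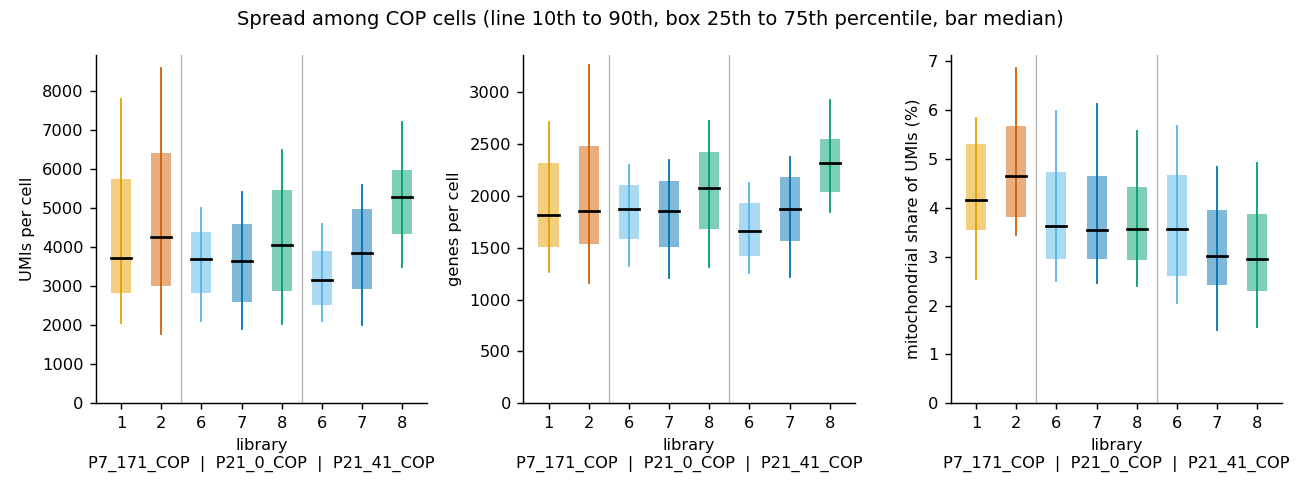
UMIs (left), genes (middle) and mitochondrial share (right) of COP cells in each library, grouped by subcluster, with lines from the 10th to the 90th percentile, boxes from the 25th to the 75th and a black bar at the median. P21_41_COP medians span 3149.5 to 5280.5 UMIs over libraries, against 3653 to 4048.5 for P21_0_COP.

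In mitochondrial share P21_41_COP was the lower of the pair in 3 of 3 libraries. P21_0_COP stood at 3.63, 3.56 and 3.56% and P21_41_COP at 3.58, 3.02 and 2.96%. The differences were -0.0521, -0.535 and -0.607 points, a mean of -0.398, and the exact permutation test gave its smallest p of 0.25 (adjusted p = 0.75). P21_41_COP minus NFOL of the same library was -0.120, -0.482 and -0.209 points in mitochondrial share and -2118, -2884 and -3583.5 UMIs (exact permutation p = 0.25 for both, the smallest possible). P21_41_COP thus lay below both P21_0_COP and NFOL in mitochondrial share. In UMIs it lay nearer to P21_0_COP than to NFOL in each library.

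Detected genes and mitochondrial share both moved with UMIs among COP cells, so the stages were also compared at matched depth. Over COP cells of 1 library, Spearman's rho between UMIs and genes was 0.98 or above in every library, and between UMIs and mitochondrial share it was -0.40 and -0.33 at P7 and -0.34, -0.41 and -0.31 at P21. These are descriptions over cells, and UMIs enter both measures. In library 6, COP cells with 1500 to 2000 UMIs had a median share of 5.31% and those with 4500 to 5000 UMIs one of 3.09%. Libraries 7 and 8 showed the same slope, from 5.60 to 3.11% and from 4.71 to 3.01%.

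Among cells with 2500 to 3500 UMIs, COP no longer had more genes than OPC. COP medians were 1658, 1636 and 1732 genes at P21 and OPC medians 1743, 1639 and 1760.5, and in library 1 they were 1571 and 1731. COP was lower in 4 of 4 libraries, with a mean difference of -69.1 genes (exact sign-flip permutation p = 0.125, the smallest possible), or -38.8 genes without library 1. From 2000 to 3000 UMIs the difference was -5.13 genes (exact permutation p = 1). From 3000 to 4000 UMIs it was -67.75 genes (exact permutation p = 0.25). With 4 libraries this test cannot go below 0.125, so a difference in genes at matched depth was not resolved. OPC had fewer UMIs than COP at P21, with medians of 2749 to 2852 against 2970 to 3060 from 2500 to 3500 UMIs. From 2000 to 3000 UMIs they were 2264, 2345 and 2358 in OPC and 2517, 2563.5 and 2508 in COP. In the narrower bin of 3000 to 3500 UMIs, COP had 1728, 1745 and 1813 genes and OPC 1908, 1785.5 and 1944. From 1500 to 2000 UMIs COP had 1130, 1141.5 and 1200 and OPC 1167, 1138 and 1196.

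The lower mitochondrial share of COP than of OPC was not seen in every library at matched depth either. Between 2500 and 3500 UMIs the differences were -0.234, -0.598 and 0.0930 points in libraries 6, 7 and 8 and 1.21 points in library 1, the last from 16 COP and 11 OPC cells. Their mean was 0.119 points (exact permutation p = 0.875), and without library 1 it was -0.246 points.

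Against NFOL the comparison at matched depth rests on few NFOL cells and on 1 or 2 libraries, in which no test can pass. Between 2500 and 3500 UMIs only library 6 had enough NFOL, with 33 cells, and COP had 84 more genes than they did. The difference was 54 genes from 3000 to 4000 UMIs in library 6. From 2000 to 3000 UMIs it was 174.5 genes over libraries 6 and 7, where the 10 NFOL cells of library 7 had a median of 2187.5 UMIs against 2563.5 in COP. Between 4000 and 5000 UMIs, a window added after seeing the data, COP had 2104 genes in library 6 and 2078 in library 7, and NFOL 2055.5 and 2061, a mean difference of 32.75 genes. In mitochondrial share COP stood below NFOL in each of these windows, by a mean difference of -0.687 points from 2500 to 3500 UMIs, -0.797 from 2000 to 3000, -0.437 from 3000 to 4000 and -0.318 from 4000 to 5000. These signs are opposite to the mean over all cells of the 3 libraries, 0.105 points, though library 6 was at -0.0694 points there too.

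**Figure D5:**
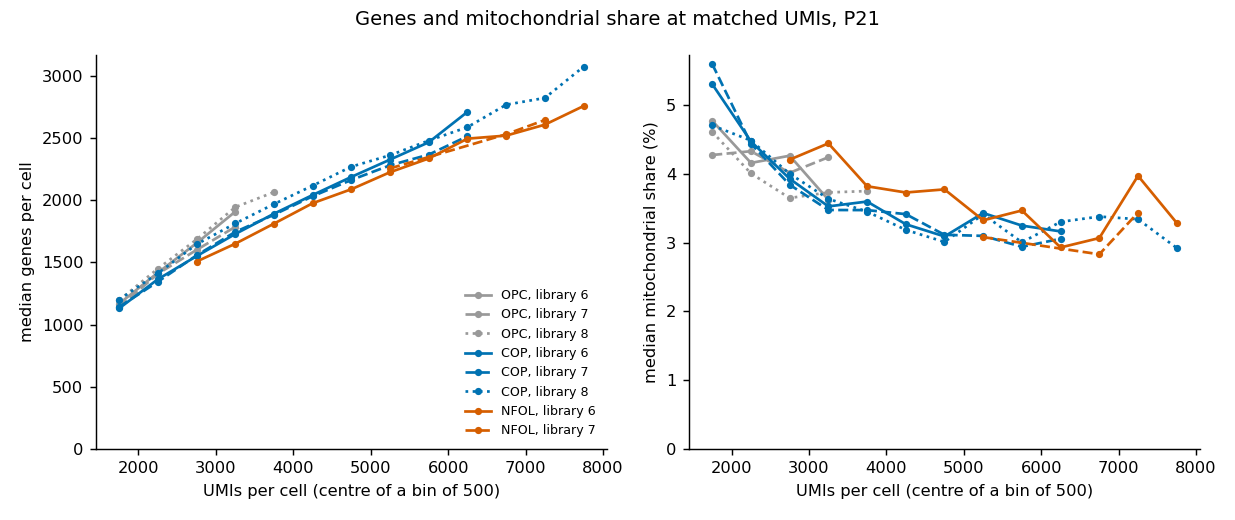
Median genes (left) and mitochondrial share of UMIs (right) in bins of 500 UMIs for OPC, COP and NFOL of the P21 libraries, for bins with at least 10 cells, which NFOL of library 8 did not reach in the range drawn. The curves of genes run close together at the same UMIs, and the mitochondrial share of COP is highest in the bins of fewest UMIs, at 4.71 to 5.60% from 1500 to 2000 UMIs.

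Within a window of UMIs the P21 libraries showed more genes per COP cell, which 5 libraries cannot carry past the threshold. Between 3000 and 4000 UMIs, the only window used with at least 10 COP cells in all 5 libraries, COP had 1647 and 1728.5 genes at P7 and 1810, 1829.5 and 1890 at P21. The P21 libraries lay above both P7 libraries by 155 genes on average, with the smallest exact permutation p of 0.1. Depth was not equal within the window, since COP medians were 3269 and 3438.5 UMIs at P7 and 3517, 3526 and 3525 at P21. Among P21_41_COP cells in the same window the medians were 1738.5, 1740 and 1850 genes, below 1831, 1844 and 1905 in P21_0_COP of the same libraries (mean -83.8, exact permutation p = 0.25, the smallest possible). These P21_41_COP cells also had fewer UMIs, with medians of 3390, 3431 and 3508.5 against 3557, 3582 and 3527. From 2000 to 3000 UMIs that subcluster difference was -11.25 genes in the libraries with enough cells.

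Among all types of the P21 libraries with at least 20 cells, COP ranked 5th from the lowest in median UMIs in each library, of 12, 9 and 12 types. Pericytes, the mural cells of small vessels, came next below and CPN next above in each. In mitochondrial share COP ranked 2nd, 3rd and 4th from the lowest in libraries 6, 7 and 8.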

How the data were processed

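The authors aligned reads of 10x Genomics 3' v2 libraries with Cell Ranger 3.0.1 to mm10, joined all libraries with downsampling to a like coverage per cell, kept cells with 1000 to 6000 genes, no more than 15000 UMIs and under 10% mitochondrial reads, clustered them and named the clusters from marker genes. The deposited table gave UMIs per cell as counts, genes per cell and a mitochondrial fraction, shown here in percent. The sources used here do not give a treatment of doublets, and no caller was run. The labels also mention a tdTomato sort, and the live-cell sort was taken to apply.

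Cells were placed in libraries by the number after the barcode. Libraries were not tied to single samples, and nothing shows the P7 libraries to be separate pools, so p-values measure the spread between libraries only. Medians were taken per library where a type had at least 20 cells, or 10 within a window of UMIs. Ages were compared by two-sided exact permutation of library ages, and types within libraries by exact sign-flip tests. OPC, COP and NFOL, or the subclusters, were compared by exact permutation of names within libraries. Benjamini-Hochberg adjustment ran within families, at a threshold of 0.05. The age measures and abundances formed a family, and each other comparison formed its own over 3 measures. Stages and subclusters were thus adjusted apart, though planned as the same family. limma 3.58.1 (R 4.3.3) on log2 medians, or percent for mitochondrial share, was an alternative over 7 types, treated as independent though they share libraries. Every COP subcluster was named. Intervals are 95% Clopper-Pearson and a count of 0 was given a limit of 3 counts; both cover counting error only. Matched windows were 2500 to 3500 UMIs, with 2000 to 3000 and 3000 to 4000 as alternatives. Mitochondrial UMIs, the spread of UMIs, mitochondrial share at matched UMIs, the window of 4000 to 5000 UMIs and comparisons of single subclusters were chosen after seeing the data. The members, tests and comparisons were chosen with earlier results of these data known. Tests were checked on simulated data. Scripts ran in Python 3.11.15 (scipy 1.17.1, pandas 2.3.3, numpy 2.4.6).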

Additional observations from a re-analysis of the deposited data

How the results depend on the processing

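Apart from leaving out a library, 9 alternative values turned direction, 3 passed the threshold newly and 1 moved, while 153 kept their direction and their side of the threshold. For most comparisons the smallest p that the libraries allow lies above 0.05, so their side of the threshold was fixed by the design and shows no stability. The COP difference in genes between ages was -99.7 with means over cells and -80.7 with at least 1500 genes per cell, and that in UMIs was 103 with P21_41_COP alone. COP minus NFOL in mitochondrial share was -0.00476 points with at least 1500 genes, -0.0711 with subclusters weighted equally and -0.270 with P21_41_COP alone. The subcluster difference in genes was -10.7 with at least 1500 genes. At matched UMIs, COP minus OPC in mitochondrial share was -0.00993 points from 2000 to 3000 UMIs and -0.239 from 3000 to 4000. Within its own family, the stage test of mitochondrial share passed with means (NFOL minus OPC -0.821 points) and with cells under 5% (-0.548 points). The COP age difference in that share, -0.848 points, passed in limma (adjusted p = 0.0132), which treats types of the same libraries as independent.

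Leaving out 1 library in turn moved the COP age difference between -468.5 and 84.5 UMIs (positive without library 2) and between -2 and 135.5 genes (negative without library 8). COP minus NFOL in mitochondrial share ranged from -0.0262 to 0.191 points, the subcluster differences from -177 to 713 UMIs and from -93.5 to 132 genes, each turning without library 8. NFOL minus OPC ranged from 4115 to 5916 UMIs and from 1112 to 1485 genes, and no stage test with 2 libraries can pass. COP minus OPC in mitochondrial share at matched UMIs ranged from -0.246 to 0.358 points, negative without library 1. The cause of these turns was not tested. No paired analysis was possible because no label ties a library to a sample and its replicate number; types were compared within libraries. COP medians at P7 rest on 51 and 56 cells. A test of subclusters at P7 could not be run with 1 subcluster.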
